A study of Homo sapiens with 6 samples.

Results

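GAS5 and the RNAs named SNHG are long RNAs whose genes carry small nucleolar RNAs (snoRNAs) inside them. The loci named GAS5, or SNHG followed by a number, were taken from the table of expression values, which gave 9 of 6357 assembled loci: GAS5, SNHG1, SNHG5, SNHG6, SNHG7, SNHG8, SNHG11, SNHG12 and SNHG22. The rule used names and no measured values. Of 29 SNHG symbols in the RefSeq gene table, 8 were listed by name, and the others were not. RNA was sequenced from the human liver cancer cell line HepG2, as 3 plates of unedited cells (WT) and 3 plates in which FN3K, the gene of a kinase that acts on sugar-modified proteins, had been knocked out with CRISPR (KO). All plates were grown in Eagle's Minimum Essential Media with fetal bovine serum. How many KO clones these plates came from is not given in the sources used here, so the p-values measure the spread between plates.

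The values are FPKM, fragments scaled to transcript length and to the mapped fragments of each library, so levels can be compared between genes per unit of length. Library depth is unknown, and the FPKM of all loci summed to between 289983 and 314164 per library. FN3K itself had 21.9 to 27.7 FPKM in WT and 0.704 to 1.03 FPKM in KO. Of 14 liver and HepG2 marker genes, 10 were listed by name, whereas ALB, APOA2, APOC3 and FGG were not. Beside the fall of the host RNAs given below, 6 of these 10 markers were higher in KO and 1 (HNF4A) lower at a limma adjusted p under 0.05, beside 21.2% and 36.5% of all loci, with a median log2 fold change of 0.39, the highest being TTR at 2.90 and AFP at 2.01. Their part in the results on the host RNAs was not tested. Of 10 markers of other cell types, 0 were listed. Correlations of log2(FPKM + 1) across loci, which are not independent replicates, were 0.980 to 0.983 within groups and 0.923 to 0.931 between them.

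In a snoRNA host gene, the snoRNAs usually lie in introns, and they are trimmed out of the excised introns after splicing. Box C/D snoRNAs guide methylation and box H/ACA snoRNAs guide pseudouridylation of other RNAs, mainly ribosomal RNA, while scaRNAs do the same for spliceosomal RNAs in Cajal bodies. The spliced exons of GAS5 and many other hosts form RNAs with little coding potential that are translated over short reading frames and broken down by nonsense-mediated decay. Many hosts begin with a terminal oligopyrimidine (TOP) tract, a run of C and U at the first bases of the RNA that is shared with the mRNAs of ribosomal proteins and through which translation follows growth signals. GAS5, growth arrest-specific 5, was found through its accumulation in growth-arrested cells, and its RNA can bind the glucocorticoid receptor.

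The snoRNAs named inside the 9 genes differ in number and kind. GAS5 spans chromosome 1 from 173863900 to 173868882 on the minus strand in GENCODE version 29 (GRCh38), and its listed transcript has 11 exons and 542 bases. RefSeq places 10 box C/D snoRNAs (SNORD44, SNORD47, SNORD74 to SNORD81 without a gap) and SNORA103 within this span. SNHG1, on chromosome 11 from 62851988 to 62855914, holds 8 box C/D snoRNAs. SNHG12, on chromosome 1 from 28578538 to 28583132, holds SNORD99 and 3 box H/ACA snoRNAs. SNHG7 (chromosome 9 from 136721366 to 136728184), SNHG5 (chromosome 6 from 85660950 to 85678748) and SNHG11 (chromosome 20 from 38446578 to 38450921) hold 2 each, of the H/ACA kind in SNHG7 and SNHG11 and of the C/D kind in SNHG5. SNHG8 (chromosome 4 from 118278709 to 118279823) holds SNORA24, and SNHG6 holds SNORD87. SNHG22 (chromosome 18 from 49814023 to 49851059) stands apart, because its listed transcript is a single exon of 421 bases. The scaRNA SCARNA17, of 144 bases, lies in that exon, and the FPKM of SNHG22 do not separate the scaRNA from the rest of the exon. The 3 small RNAs below, from GENCODE version 29 on GRCh38, show the kinds of cargo. Capitals mark the C box (TGATGA) and the D box (CTGA) of SNORD27, hosted by SNHG1, and the ACA box of SNORA24, hosted by SNHG8, which ends 3 bases before its 3′ end. No bases are marked in SCARNA17, from the exon of SNHG22.
SNORD27 (chr11:62855012-62855083, minus strand): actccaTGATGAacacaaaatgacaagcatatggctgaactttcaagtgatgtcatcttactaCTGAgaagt
SNORA24 (chr4:118279190-118279320, plus strand): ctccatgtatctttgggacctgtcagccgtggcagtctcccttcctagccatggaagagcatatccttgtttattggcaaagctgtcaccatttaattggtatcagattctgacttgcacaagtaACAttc
SCARNA17 (chr18:49814133-49814276, plus strand): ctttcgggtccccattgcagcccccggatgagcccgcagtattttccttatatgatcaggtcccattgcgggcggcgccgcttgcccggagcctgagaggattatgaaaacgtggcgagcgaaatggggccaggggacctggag

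The first bases of the hosts are shown because the TOP tract is the feature that many of them share with ribosomal protein mRNAs. Each line gives 20 bases before and 20 bases from the annotated start (RefSeq promoter table, GRCh38.p14, strand of the RNA), and for GAS5, whose RefSeq start lies further upstream, the 30 bases of the first exon of its listed GENCODE transcript on GRCh38. Of the 9 RNAs, 8 matched the promoter table. Capitals mark the longest unbroken run of C and T that overlaps the 10 bases on either side of the start. For GAS5 the run had to overlap the first 10 bases shown. The search was made on the strand of the RNA alone. ZFAS1 and C6orf48, also known as SNHG32, are hosts with other names that are described further on.
GAS5 (chr1:173867960-173867989, minus strand): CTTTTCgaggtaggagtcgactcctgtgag
SNHG7 (chr9:136728165-136728204, minus strand): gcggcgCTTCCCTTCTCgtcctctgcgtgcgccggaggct
SNHG5 (chr6:85678714-85678753, minus strand): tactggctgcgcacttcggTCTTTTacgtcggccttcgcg
SNHG8 (chr4:118278742-118278781, plus strand): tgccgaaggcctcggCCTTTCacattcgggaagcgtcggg
SNHG1 (chr11:62855866-62855905, minus strand): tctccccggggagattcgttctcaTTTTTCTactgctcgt
SNHG12 (chr1:28581854-28581893, minus strand): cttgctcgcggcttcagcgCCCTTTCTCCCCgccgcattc
SNHG11 (chr20:38446634-38446673, plus strand): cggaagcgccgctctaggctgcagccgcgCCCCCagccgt
SNHG22 (chr18:49814003-49814042, plus strand): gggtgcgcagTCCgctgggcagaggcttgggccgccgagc
ZFAS1 (chr20:49278622-49278661, plus strand): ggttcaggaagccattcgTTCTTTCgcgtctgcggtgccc
C6orf48 (chr6:31834896-31834935, plus strand): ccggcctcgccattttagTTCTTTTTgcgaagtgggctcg

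GAS5, SNHG5 and SNHG8 had runs of 6 bases, SNHG1 and ZFAS1 of 7, C6orf48 of 8, SNHG7 of 11 and SNHG12 of 12. SNHG11 had 5 and SNHG22 had 3. Of the other hosts with other names, LRRC75A-AS1 had 13, DANCR 5 and EPB41L4A-AS1 4, so that 9 of 13 host RNAs examined had at least 6. SNHG6 and LINC00152 were not among the 13. Of 27305 promoters in the RefSeq table, 30.69% had a run of at least 6 bases, 20.88% at least 7 and 4.33% at least 12. These shares follow the rule used for the hosts other than GAS5, for which no bases before the start were searched. Of 12 ribosomal protein genes that host snoRNAs and matched the table, 9 had at least 6, with a median run of 10.5 bases against 4 over all promoters. The runs of SNHG7, SNHG22 and LRRC75A-AS1 ended before the annotated start, and those of SNHG1, SNHG11 and DANCR began after the first base. Such runs are counted here although they are not at the first bases of the annotated RNA. The run is a description of these letters around an annotated start and does not place the start used in HepG2 cells.

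GAS5 had the highest level of the 9 RNAs in WT cells and the lowest log2 fold change of them in KO cells. Its WT libraries had 184.0, 190.4 and 196.6 FPKM and its KO libraries 43.5, 42.6 and 42.4 FPKM, in the order of the replicate numbers used for all values that follow. The groups did not overlap and lay far apart relative to their spread, with means of 190.3 ± 6.29 in WT and 42.8 ± 0.548 in KO (SD, n = 3). GAS5 was 4.44-fold lower by these means, and its log2 fold change (KO minus WT, on log2(FPKM + 1)) was -2.13 (standard error, SE, 0.05; Benjamini-Hochberg adjusted p = 2.41e-08 over 6357 loci in limma). A two-sided exact permutation test gave p = 0.10, the smallest that 3 libraries against 3 allow. By log2 fold change GAS5 was the locus ranked 9 from the lowest. In bulk RNA, fewer cells with the RNA and less RNA per cell cannot be told apart.

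**Figure D1:**
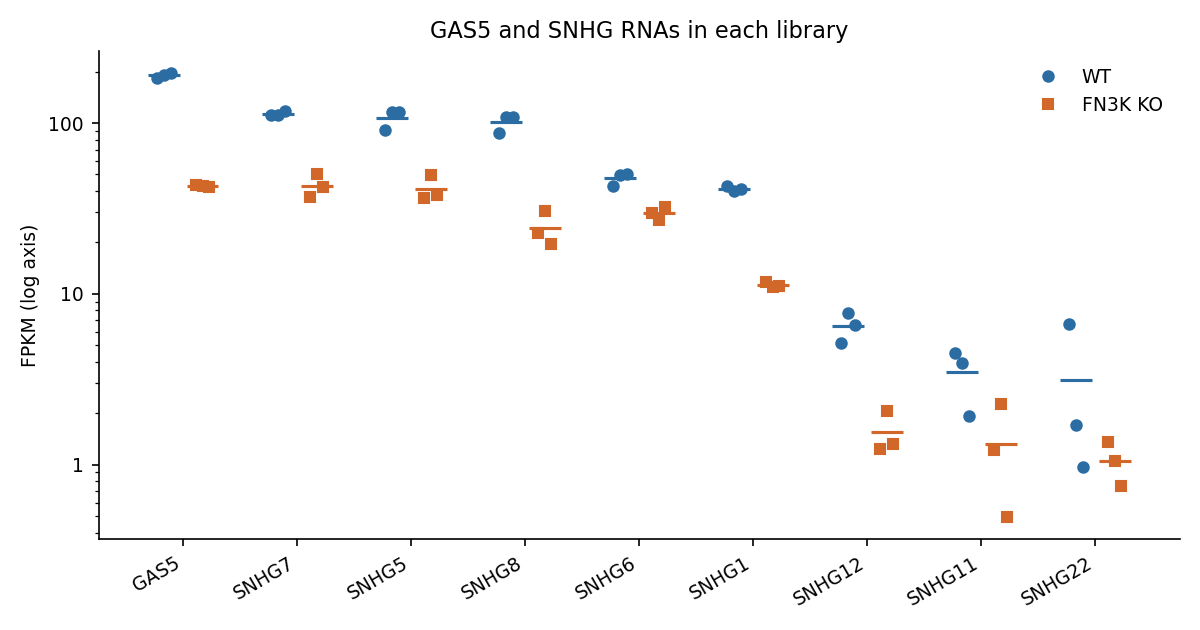
FPKM (log axis) of the 9 RNAs in each of the 6 libraries, WT as circles and FN3K KO as squares, with a line at each group mean (n = 3). The KO libraries lie below every WT library for 7 RNAs, GAS5 at 42.4 to 43.5 against 184.0 to 196.6 FPKM, whereas SNHG11 and SNHG22 overlap.

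The hosts of box C/D snoRNAs other than GAS5 also fell. SNHG1, a host with all its snoRNAs of this kind, had 42.7, 40.2 and 41.1 FPKM in the WT libraries and 11.7, 10.9 and 11.2 FPKM in the KO libraries. Its groups were separated and each was tight, with a log2 fold change of -1.79 (SE 0.06, limma adjusted p = 9.09e-08). SNHG5, which carries SNORD50A and SNORD50B, had 91.3, 115.6 and 115.3 FPKM in WT and 36.4, 49.3 and 38.1 FPKM in KO. WT replicate 1 was the lowest of its group and KO replicate 2 the highest of its own, yet the groups stayed apart, and the log2 fold change was -1.36 (SE 0.13, limma adjusted p = 3.37e-05). SNHG6, the host of SNORD87, lies on chromosome 8 from 66921684 to 66926398. Its levels were 42.9, 49.4 and 50.3 FPKM in the WT libraries and 29.7, 27.2 and 32.2 FPKM in KO. It fell by the smallest amount of the 8 RNAs that passed the test, with a log2 fold change of -0.66 (SE 0.08, limma adjusted p = 2.01e-04), and the groups did not overlap.

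Among the hosts of box H/ACA snoRNAs, SNHG8 and SNHG7 were abundant and SNHG12 and SNHG11 were not. SNHG8, with the single snoRNA SNORA24, had 87.3, 108.1 and 107.9 FPKM in WT and 22.8, 30.7 and 19.7 FPKM in KO. Every KO library was far below every WT library, and the log2 fold change was -2.02 (SE 0.15, limma adjusted p = 8.40e-06). SNHG7, which carries SNORA17A and SNORA17B, had 112.1, 111.2 and 117.7 FPKM in WT and 36.8, 50.2 and 42.3 FPKM in KO, a log2 fold change of -1.39 (SE 0.10, limma adjusted p = 7.14e-06). The WT libraries of SNHG7 were close together, and the KO libraries varied more.

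SNHG12, which holds snoRNAs of both kinds, had 5.15, 7.70 and 6.56 FPKM in WT and 1.24, 2.07 and 1.33 FPKM in KO. The groups did not overlap, with a log2 fold change of -1.55 (SE 0.20, limma adjusted p = 2.64e-04). Its mean was 4.18-fold lower in KO, close to the 4.44-fold of GAS5, and its smaller log2 value comes from the pseudocount of 1 FPKM, since it was -2.01 with 0.1 FPKM. SNHG11 had 4.53, 3.95 and 1.92 FPKM in WT and 1.21, 2.27 and 0.495 FPKM in KO. KO replicate 2 was above WT replicate 3, so the groups overlapped, and the log2 fold change was -0.96 (SE 0.36, limma adjusted p = 0.0458). This call was lost in 7 of 12 alternatives, with adjusted p from 0.0163 to 0.368 over all of them.

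SNHG22 had 6.66, 1.71 and 0.967 FPKM in WT and 1.36, 1.05 and 0.752 FPKM in KO. WT replicate 1 was high, the other WT libraries lay among or near the KO libraries, and the log2 fold change of -0.76 did not pass the test (SE 0.48, limma adjusted p = 0.205). Without WT replicate 1 the log2 fold change was -0.18. The level of SNHG22 in that library was 4.98 times the mean of the other WT libraries, the value ranked 15 from the top of 6285 loci, against a median of 0.948. Of 7 other structured or non-polyadenylated RNAs, chosen after their values were seen, 5 were above the mean of the other WT libraries there, beside 32.3% of 6285 loci. RNA5-8S5, a ribosomal RNA with 5 of the 11 loci of this set, was 1.79 to 1.90 times that mean, and the snoRNA SNORD104 was 0.434 times it. RN7SK, the RNA of a complex that holds back transcription elongation, had 148.4 FPKM in WT replicate 1 against 45.7 and 26.8 in the other WT libraries, and 35.3, 47.6 and 36.1 in the KO libraries. RMRP, the RNA of a processing ribonuclease, had 9.03, 6.61 and 1.94 FPKM in WT and 0.687, 5.75 and 3.04 in KO, with wide spread in both groups. The scaRNA SCARNA2 had 5.73, 3.69 and 2.56 FPKM in WT and 2.07, 1.79 and 0.881 in KO. MALAT1, a nuclear long RNA whose end is a folded structure, had 10.9, 4.51 and 3.62 FPKM in WT and 5.44, 10.2 and 11.3 in KO. RN7SL1, the RNA of the signal recognition particle, went the other way, with 309.2 FPKM in WT replicate 1 against 514.1 and 425.5. Among the other host RNAs, GAS5, SNHG5, SNHG6, SNHG8 and SNHG12 were lowest in WT replicate 1 within their group. SNHG1 and SNHG11 were highest there, and SNHG7 lay between. The labels describe capture of mRNA on oligo(dT) beads, while the study's methods speak of total RNA, and the part of either in these values was not tested.

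**Figure D2:**
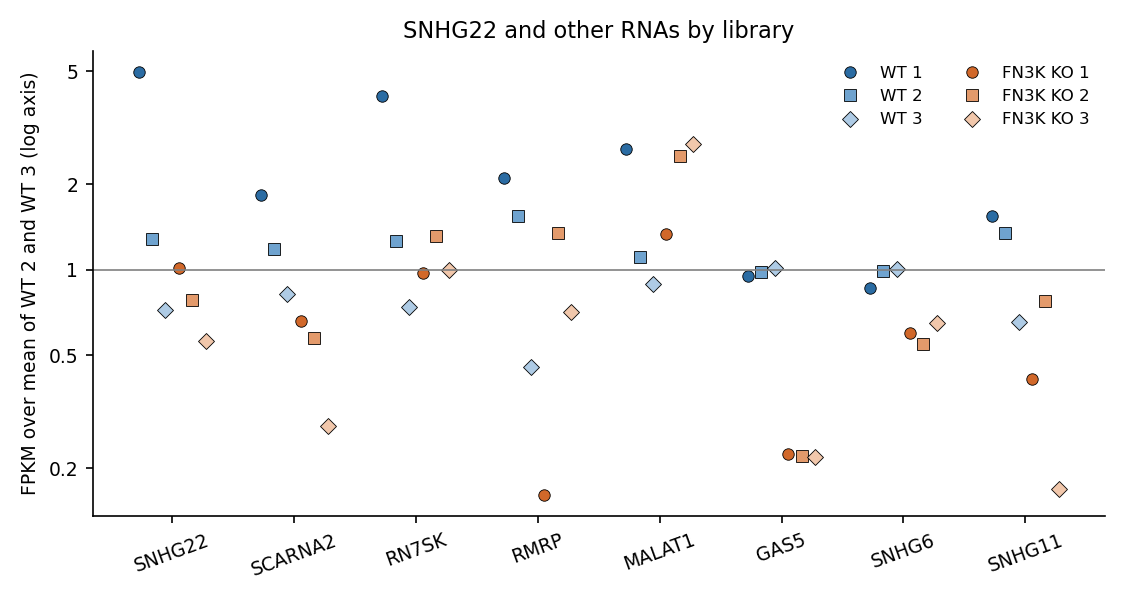
FPKM of SNHG22, 4 structured or nuclear RNAs and 3 other host RNAs in each library, divided by the mean of WT replicates 2 and 3 (log axis); circles, squares and diamonds stand for replicates 1, 2 and 3 of WT (blue) and FN3K KO (orange). WT replicate 1 is at 4.98 for SNHG22 and 4.09 for RN7SK, and GAS5 is close to 1 in all WT libraries.

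Over the 9 RNAs, 8 were lower in KO at a limma adjusted p under 0.05, beside 36.5% of all loci, and 7 had every KO library below every WT library, beside 39.8% of all loci. None was called higher, with or without adjustment of p, or in a linear model with the default library adjustment of Ballgown, beside 21.2% of loci called higher in limma. The median log2 fold change of the 9 was -1.39, and that of all loci was -0.14. In the Ballgown model, 5 of 9 were called lower (GAS5, SNHG1, SNHG5, SNHG7 and SNHG8), beside 8.20% of all loci. Together the 9 RNAs summed to 576.6 to 638.2 FPKM in WT and 184.7 to 216.4 FPKM in KO. All 9 had a mean of at least 1 FPKM.

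The order of the levels changed little. In WT the order was GAS5, SNHG7, SNHG5, SNHG8, SNHG6, SNHG1, SNHG12, SNHG11 and SNHG22. The ranges of SNHG7, SNHG5 and SNHG8 overlapped from one to the next, as did those of SNHG12, SNHG11 and SNHG22 through the wide range of SNHG22. In KO, SNHG7, GAS5 and SNHG5 had overlapping ranges, so the lead that GAS5 had in WT was gone, and SNHG6 stood above SNHG8 in the mean with overlapping ranges. The KO ranges of SNHG12, SNHG11 and SNHG22 overlapped as well. GAS5 made up 30.3% to 31.9% of the summed FPKM of the 9 RNAs in WT and 19.7% to 23.5% in KO.

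Ratios within a library do not depend on how the libraries were scaled to each other, and they show how unequally the hosts changed. GAS5 over SNHG6 was 4.29, 3.86 and 3.91 in WT and 1.46, 1.56 and 1.32 in KO. GAS5 over SNHG1 went from 4.31, 4.74 and 4.78 to 3.72, 3.90 and 3.81, a smaller shift. GAS5 over SNHG7 was 1.64, 1.71 and 1.67 in WT and 1.18, 0.849 and 1.00 in KO. SNHG5 over SNHG7 overlapped between the groups, with 0.815, 1.04 and 0.980 in WT and 0.988, 0.983 and 0.902 in KO (two-sided exact permutation p = 0.80). GAS5 over ZFAS1, a host with another name, was 0.776, 0.772 and 0.803 in WT and 0.735, 0.729 and 0.767 in KO, a log2 difference of -0.08. GAS5 over RPLP0, the mRNA of a ribosomal stalk protein, was 0.222 to 0.228 in WT and 0.102 to 0.105 in KO. Of the 6 ratios, 5 did not overlap between groups (exact permutation p = 0.10 each, 0.12 after Benjamini-Hochberg adjustment over the 6), and 3 libraries against 3 cannot give a smaller p.

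**Figure D3:**
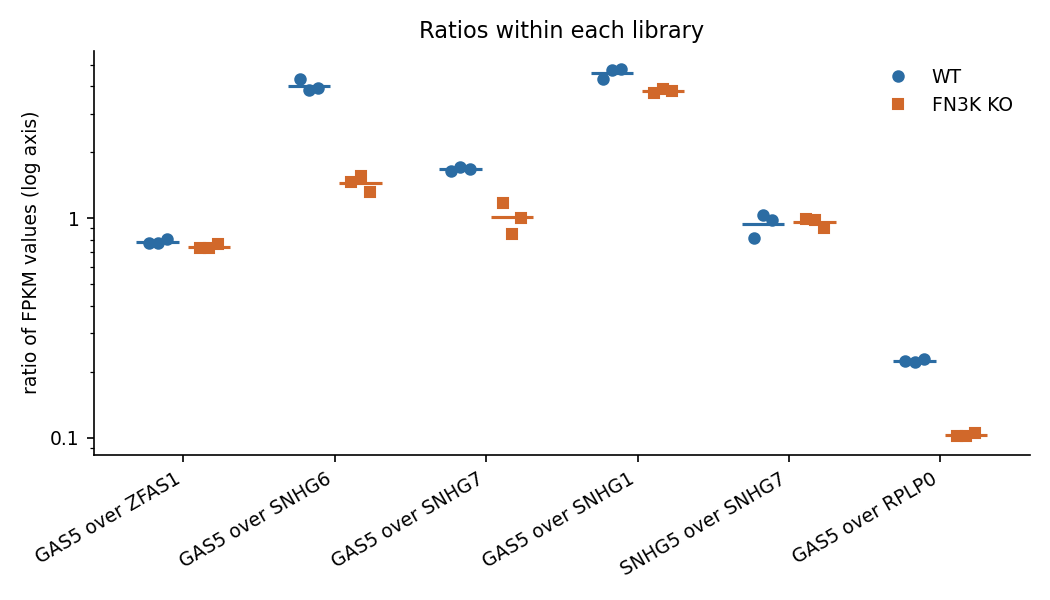
Ratios of FPKM values within each library (log axis), WT as circles and FN3K KO as squares, with a line at each group mean (n = 3). GAS5 over SNHG6 drops from about 4 to 1.32 to 1.56, while GAS5 over ZFAS1 stays between 0.729 and 0.803 and SNHG5 over SNHG7 overlaps.

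Of 8 RNAs taken as hosts with other names, 6 were listed and 5 of these were lower in KO, beside 36.5% of all loci. The median log2 fold change of the 6 was -1.05. ZFAS1, a host of 3 box C/D snoRNAs, had 237.2, 246.6 and 244.7 FPKM in WT and 59.1, 58.4 and 55.4 FPKM in KO. It was as well separated as GAS5, with a log2 fold change of -2.06 (SE 0.05, limma adjusted p = 2.41e-08). C6orf48, annotated as protein coding in GENCODE version 29, fell by 1.25 and LRRC75A-AS1, also known as SNHG29, by 1.22 on the log2 scale. EPB41L4A-AS1 had 8.52, 9.87 and 9.36 FPKM in WT and 4.01, 5.45 and 4.21 FPKM in KO, a log2 fold change of -0.89 (SE 0.13, limma adjusted p = 3.99e-04). DANCR was lower by the least, at -0.41 (SE 0.08, limma adjusted p = 0.00218). LINC00152, with 0.632 to 3.66 FPKM in WT and 1.64 to 2.04 in KO, did not pass the test (0.15, SE 0.39, limma adjusted p = 0.753). It was taken as a host, but it was not among the non-coding genes with an annotated small RNA in their span, given below.

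**Figure D4:**
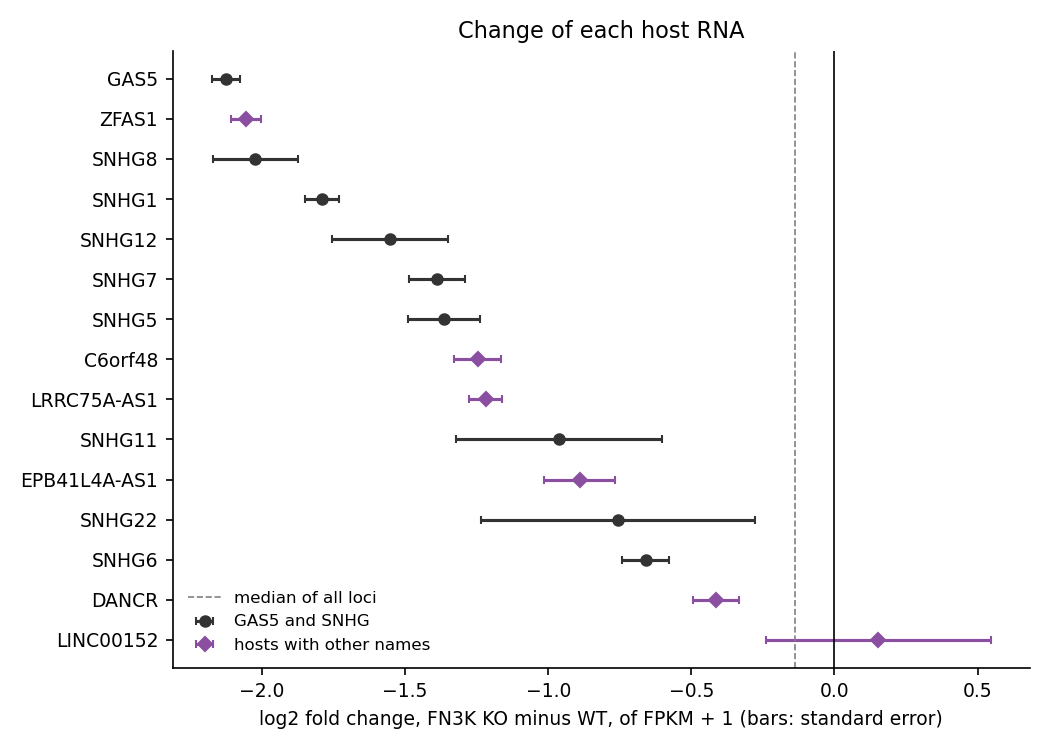
Log2 fold change of FPKM + 1 (FN3K KO minus WT) of the 9 GAS5 and SNHG RNAs (circles) and 6 host RNAs with other names (diamonds), with standard errors from limma; the dashed line is the median of all loci, -0.14. GAS5, ZFAS1 and SNHG8 lie beyond -2, and SNHG6 and DANCR are nearest to 0 among the RNAs that passed the test. LINC00152, which had no annotated small RNA in its span, lies above 0.

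The mRNAs of ribosomal proteins whose genes carry snoRNAs were lower as well. All 19 listed of 22 were called lower, beside 36.5% of all loci, with log2 fold changes from -1.11 (RPS12) to -0.63 (RPL3) and a median of -0.77. RPS12 had 1093, 1298 and 1261 FPKM in WT and 519.5, 629.6 and 538.2 FPKM in KO. Other coding hosts were divided: 8 of 11 listed were lower, beside the same 36.5% of all loci, with a median of -0.66. TPT1, the mRNA of a translationally controlled tumour protein, was at -0.98 (SE 0.08, limma adjusted p = 1.35e-05) and EEF1B2, of a translation elongation factor, at -0.95 (SE 0.06, limma adjusted p = 4.79e-06). HSPA8 (-0.09), NAP1L4 (0.06) and EIF4A2 (0.15) did not pass the test.

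All annotated loci were also grouped by gene type and by the small RNAs that RefSeq or GENCODE place in their span. This step was added after the data were examined. The counts stand beside 36.5% of all loci called lower and 21.2% called higher in limma. Of 13 non-coding genes with a small RNA in their span, 12 were lower (median log2 fold change -1.36). Of 82 non-coding genes without one, 31 were lower and 17 higher (median -0.19), and the share lower, 37.8%, was near that of all loci. Ribosomal protein genes were lower in 23 of 23 cases with a small RNA (median -0.81) and in 31 of 32 without one (median -0.74). Of 105 other coding genes with a small RNA in their span, 51 were lower and 10 higher (median -0.27). The RefSeq table used gives no strand, so some of these small RNAs may lie on the other strand. The 13 non-coding genes are the 9 RNAs described here with ZFAS1, LRRC75A-AS1, EPB41L4A-AS1 and DANCR. Their count therefore repeats values given above and is no separate result.

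The mRNAs of proteins that package snoRNAs were examined beside the hosts. Of 20 genes of the snoRNP core and its assembly, 12 were listed and 10 were lower in limma, beside 36.5% of all loci. In the Ballgown model 4 were lower, beside 8.20% of all loci. Their median log2 fold change was -0.42, while NOLC1 (-0.08) and NOP10 did not pass the limma test. For box H/ACA particles, DKC1, the pseudouridine synthase, had 34.2, 37.0 and 38.7 FPKM in WT and 21.9, 22.1 and 21.7 FPKM in KO, a log2 fold change of -0.71 (SE 0.06, limma adjusted p = 2.38e-05). GAR1 was at -0.56 (SE 0.11, limma adjusted p = 0.00223) and NHP2 at -0.44 (SE 0.09, limma adjusted p = 0.00269), while NOP10 was at 0.07 (SE 0.09, limma adjusted p = 0.532). For box C/D particles, SNU13 was at -0.65 (SE 0.06, limma adjusted p = 3.32e-05), the methyltransferase FBL at -0.42 (SE 0.06, limma adjusted p = 3.32e-04), NOP56 at -0.26 and NOP58 at -0.23. DKC1 and NOP56 are themselves hosts of snoRNAs and stand in both lists.

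Nonsense-mediated decay, which breaks down the spliced RNA of many hosts, was followed through its factors and through mRNAs known to be degraded by it. Of 20 factors 9 were listed and 4 were lower in limma (SMG1, MAGOH, GSPT1 and SMG5), with a median of -0.21, beside 36.5% of all loci. The count was 2 without WT replicate 3 and 0 in the Ballgown model. UPF1, the central helicase of the pathway, had 24.4, 23.9 and 24.8 FPKM in WT and 23.6, 27.1 and 23.0 FPKM in KO, a log2 fold change of 0.01 (SE 0.07, limma adjusted p = 0.941). Of 16 mRNAs degraded by the pathway, 13 were listed, 6 lower and 3 higher, beside 36.5% and 21.2% of all loci. Their median of -0.16 was near that of all loci. The lowest was DDIT3 at -1.12 and the highest GADD45B at 0.69. SMG5 and UPF1 stand in both lists, and SMG5 was counted as lower in each.

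**Figure D5:**
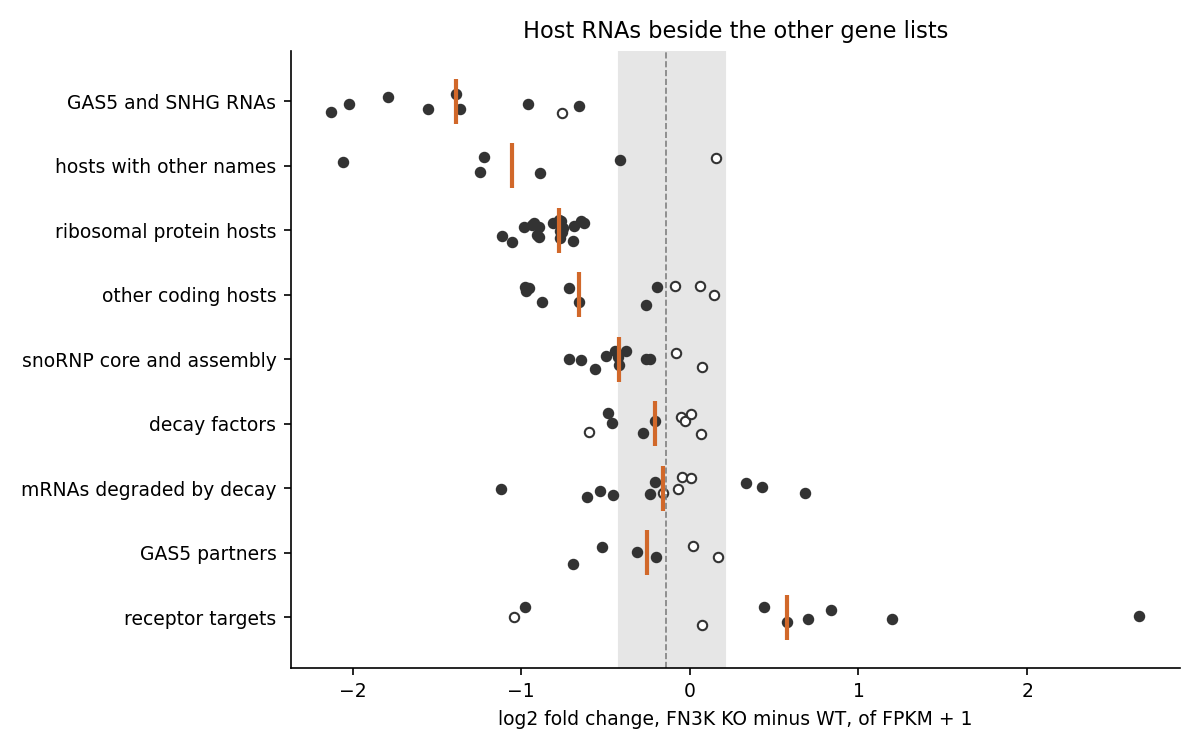
Log2 fold change of FPKM + 1 (FN3K KO minus WT) of each listed gene in 9 lists; filled points passed a limma adjusted p of 0.05, orange bars are list medians, the grey band holds the middle 50% of all loci and the dashed line their median. The medians run from -1.39 for the GAS5 and SNHG RNAs through -0.77 for ribosomal protein hosts to -0.16 for mRNAs degraded by nonsense-mediated decay and 0.57 for glucocorticoid receptor targets.

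Of 8 genes with a reported tie to GAS5 RNA, 6 were listed. They are called partners here, whether or not the RNA binds their products. NR3C1, the glucocorticoid receptor, had 5.85, 7.16 and 6.31 FPKM in WT and 4.11, 4.31 and 4.10 FPKM in KO, a log2 fold change of -0.52 (SE 0.12, limma adjusted p = 0.00531), with no overlap. CDK6, a cell cycle kinase, was at -0.69 (SE 0.08, limma adjusted p = 1.82e-04), CDKN1B at -0.31 and YBX1 at -0.20, all of them past the test, whereas PDCD4 (0.02) and EIF4E (0.17) were not. Over all loci, 36.5% were called lower in limma. Of 18 targets of the receptor 9 were listed, 6 higher and 1 lower, beside 21.2% and 36.5% of all loci, with a median of 0.57. The highest was MT2A, a metallothionein that can share reads with its paralogs, at 2.67 (SE 0.11, limma adjusted p = 3.58e-07), and the lowest that passed the test was ERRFI1, a feedback inhibitor of growth factor receptors, at -0.98 (SE 0.08, limma adjusted p = 2.28e-05). These targets answer to other inputs too. In the Ballgown model 2 receptor targets were called higher, beside 606 of all 6357 loci. No partner was called lower in it, beside 8.20% of all loci.

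Of 20 other long non-coding RNAs, 4 were listed. HULC, abundant in liver tumours, had 49.3, 43.6 and 40.0 FPKM in WT and 28.0, 23.5 and 23.3 FPKM in KO, a log2 fold change of -0.80 (SE 0.09, limma adjusted p = 1.45e-04). LINC00657, also called NORAD, was at -0.18 (SE 0.06, limma adjusted p = 0.0333), close to the median of all loci, and RMRP and MALAT1 did not pass the test. The count of 2 called lower in limma, beside 36.5% of all loci, was 1 in 8 of 12 alternatives.

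The listed genes nearest to GAS5 and SNHG22 did not share 1 direction. Of the 10 nearest listed genes to GAS5, 5 on each side, 5 were lower and 2 higher (median log2 fold change -0.20), at distances up to 5212 kb. Over all loci, 36.5% were called lower and 21.2% higher in limma. The gene nearest to GAS5, PRDX6, lay 375 kb away and was at -0.15 (SE 0.05, limma adjusted p = 0.0279). ZBTB37 and GAS5-AS1, which overlap GAS5 on the opposite strand, were not listed by name. Of the 10 nearest to SNHG22, 5 were lower and 1 higher, beside the same shares of all loci. Their median was -0.58, at distances up to 9288 kb. ACAA2, an enzyme of fatty acid oxidation whose gene begins 63 bases from that of SNHG22 on the other strand, had 9.13, 9.27 and 9.86 FPKM in WT and 9.88, 10.3 and 9.08 FPKM in KO (0.05, SE 0.08, limma adjusted p = 0.656). MYO5B and AC090227.1 overlap SNHG22, FAM69B overlaps SNHG7, MCMDC2 overlaps SNHG6 and TRNAU1AP overlaps SNHG12, each on the opposite strand and not listed by name. Whether the libraries kept the strand is not given in the sources used here, so reads of such a pair cannot be told apart.

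The loci most like GAS5 over the 6 libraries, by Pearson's r of log2(FPKM + 1) with a mean of at least 1 FPKM, were ZFAS1, RPS10-NUDT3, EPCAM, TTC17 and RPLP0, with r of at least 0.999. These values follow the difference between the groups and are a description. With group means removed, the most alike were USO1, SMC3, ETFDH, PRPS1 and ZNF513 (r from 0.988 to 0.995), whose changes between the groups lay on both sides of 0. For SNHG22 the most alike were XRCC6, RN7SK, RPL3P4, NRSN2-AS1 and C11orf95 (r from 0.927 to 0.963), each with its highest value in WT replicate 1. With group means removed they were TMEM37, CDKAL1, CROT, APOA4 and DCAF6 (r from 0.975 to 0.990), each with its highest WT value in WT replicate 1. The lists with group means removed hold the highest r of all loci compared and are a description as well.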

How the data were processed

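RNA of 6 HepG2 libraries, 3 WT and 3 FN3K KO, was used. The authors used HISAT2 for mapping and StringTie for assembly and quantification (version 2.0.6 and build GRCh38.p5, per the submitters' processing notes), and deposited FPKM values per assembled locus. FPKM keep no read counts, so depth and counting error are unknown. Here log2(FPKM + 1) was compared with limma 3.58.1 in R 4.3.3 (lmFit, eBayes with a variance trend) over all 6357 loci, with Benjamini-Hochberg adjustment and a threshold of 0.05. The transcript identifiers of 4892 loci matched GENCODE version 29, and small RNAs and start sequences came from RefSeq or GENCODE. Named genes were the members, listed genes with the highest or lowest changes or a known tie to the hosts, the 5 nearest listed genes on each side of GAS5 and SNHG22, and the 5 loci most like each. Members, lists and tests were chosen with earlier results of these data known. Tried beside it were a pseudocount of 0.1, loci with a mean of at least 1 FPKM, libraries brought to the same 75th percentile, limma with no variance trend, a linear model with the default library adjustment of Ballgown, a replicate block, and the fit without each library. Replicate numbers did not pair the libraries.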

Additional observations from a re-analysis of the deposited data

How the results depend on the processing

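GAS5 kept its call in all 12 alternatives, with log2 fold changes from -2.15 to -2.08. SNHG22 was not called in any, from -0.18 without WT replicate 1 to -1.16 without WT replicate 3, and -2.04 with the library adjustment of Ballgown. That adjustment lowered the count of host RNAs called lower from 8 to 5, losing SNHG6, SNHG12 and SNHG11. Over all loci, it took calls from 36.5% to 8.20% lower, and from 1348 to 606 loci higher. It also gave 4 lower for the snoRNP genes, 3 for hosts with other names, 0 for decay factors (4 in limma) and 2 for mRNAs degraded by decay. It gave 0 lower for GAS5 partners, 0 lower and 4 higher for HepG2 markers (1 and 6 in limma), and 1 lower for other long non-coding RNAs. For receptor targets it gave 2 higher. The cause was not tested. Leaving out 1 library gave 7 to 8 host RNAs called lower. Scaling to the 75th percentile gave 1 other coding host called higher and 1 other long non-coding RNA called lower; without the variance trend the latter was 1 and mRNAs degraded by decay called higher went from 3 to 1. With 1 library left out, counts ranged from 2 to 4 lower for decay factors, 1 to 2 higher for mRNAs degraded by decay, 1 to 2 lower for other long non-coding RNAs and for receptor targets, and 0 to 1 higher for other coding hosts and other long non-coding RNAs. SNHG11 lost its call with the library adjustment of Ballgown, and in limma with the 75th percentile (adjusted p = 0.0527) or without the variance trend (0.0618). It also lost its call in limma without WT replicate 1 (0.148), WT replicate 2 (0.130), KO replicate 1 (0.0904) or KO replicate 3 (0.132). Same-numbered libraries deviated together with r of 0.010, 0.006 and 0.046, so the numbers were not used as pairs; with the replicate block GAS5 was at -2.13 and 8 host RNAs were lower, and calls over all loci went from 2322 to 2342 lower. Depth is unknown, and the pseudocount decides the size of changes near 1 FPKM.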
